A study of Mus musculus with 14 samples.

Results

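The 41 genes followed here make proteins of young neurons, axons, secretory vesicles and synapses. They were listed by name, with no threshold on a measured value, but with earlier results of these data known. Ensembl identifiers were mapped to symbols, and all 41 were found among the 29713 genes measured. They fall into 7 roles: 5 RNA-binding proteins of neurons, 10 proteins of microtubules, growth cones and axons, 6 adhesion, guidance and ankyrin scaffold proteins, 8 proteins of synaptic vesicles and membrane fusion, 6 proteins of neuronal endosomes and dense-core granules, 5 enzymes and transporters of GABA and glutamate, and 1 postsynaptic scaffold. A neural stem cell that becomes a neuron leaves the cell cycle, makes RNA-binding proteins that change splicing and RNA stability, and builds an axon from stabilised microtubules. Peptide cargo leaves neurons in dense-core granules packed by the granin proteins, while small transmitters leave from synaptic vesicles that fuse through SNARE proteins and the calcium sensor synaptotagmin. Many of these genes are also read in glial precursors and in dividing progenitors, so that a single gene of the set does not define a neuron.

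Cultures of neural stem cells (NSC) from OG2 mice, a strain with a reporter of the pluripotency gene Pou5f1, were the source of the RNA sequenced. In 12 libraries, all at passage 8, cells were either undifferentiated or at day 2, day 4 or day 8 of differentiation, and each of these 4 stages had 1 library of the control called NC, 1 with naloxone, an antagonist of opioid receptors, and 1 with DAMGO, a peptide agonist of the mu opioid receptor. A further 2 libraries came from NSC with no named treatment, 1 at passage 8 and 1 at passage 13, which the series calls its negative controls. Doses, medium and the protocol of differentiation were not stated in the labels. No condition was replicated. The stage comparisons therefore rest on an additive model of stage and treatment with 6 residual degrees of freedom, p-values measure the spread of single libraries around that model, and whether libraries came from separate cultures is not stated.

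Library totals ranged from 4143030 to 9070533 estimated counts. On the CPM scale used here, which divides by the library total after TMM scaling, 3 counts were worth 0.355 to 0.695. Of the 41 genes, 4 were too low to test. Slc17a7 had at most 2 counts in a library, Gad2 and Slc32a1 at most 4 and Slc17a6 at most 5. These encode the vesicular glutamate transporters VGLUT1 and VGLUT2, the GABA-making enzyme GAD65 and the vesicular GABA transporter, and all 4 were at or near 0 in all 14 libraries. The other gene of that role, Gad1, was tested and is described further on. Markers of other cell types were summed as CPM, which is not corrected for transcript length, so the sums are compared between stages and not between lists. The summed level of 8 astrocyte markers was 1193 to 1243 CPM before differentiation, 4331 to 4637 on day 2, 6408 to 6502 on day 4 and 15839 to 17584 on day 8, and that of 8 markers of oligodendrocyte precursors was 2692 to 2883, 4500.4 to 5325, 4168 to 4219 and 2048 to 2180.0 CPM. The 41 genes themselves summed to 3901 to 3925 CPM, 3701 to 5007, 5426 to 5439.9 and 3825 to 4058 in the same order. The 6 markers of dividing progenitors fell from 5073 to 5257 CPM to 596 to 746 at day 2. The 6 microglia markers summed to 1.63 CPM or less in these 12 libraries, with Cx3cr1 and C1qa at 0, the 5 endothelial markers to 2.40 to 24.5 CPM, with Cdh5 and Cldn5 at 0, and the 7 markers of neural crest, Schwann and sympathoadrenal cells to 0.694 to 6.16 CPM, with Dbh, Th and Foxd3 at 0. The 7 markers of myelinating oligodendrocytes summed to 89.4 to 93.4, 574 to 632, 416 to 445 and 405 to 439 CPM in the order of the stages.

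RefSeq promoter windows (GRCm38.p6) were found for 28 of the 41 genes, 50 windows in all because some genes have several starts. Windows were searched on both strands for TTCAGCACC and GGACAGC, the left and right parts of the RE1 element bound by the repressor REST, for TGACGTCA, the cyclic AMP response element (CRE), and for CAGCTG, an E-box of proneural factors; the letters of the 4 motifs do not contain one another. The left RE1 part stood in 3 of the 50 windows (Nsg2, Scg2 and Syn1) and in 0.371% of all 32851 promoter windows. The right part stood in 4 of the 50 (Ank2, Gad2, Map2 and Scg2) and in 6.56% of all windows. The CRE stood in 3 of the 50 (Chgb, Scg2 and Syn1) and in 1.79%, and the E-box in 14 of the 50, from 10 genes, and in 16.3%. The windows of Scg2, Chgb and Syn1 are shown because these genes carry the CRE and the members of the granin family among them had some of the widest changes of the set. They were picked after the matches had been seen. Capitals mark the left RE1 part and the CRE, and positions count from 1 at the 5′ end of the printed run, which ends 30 bases after the RefSeq start.
Scg2, chr1:79439997-79440276, minus strand: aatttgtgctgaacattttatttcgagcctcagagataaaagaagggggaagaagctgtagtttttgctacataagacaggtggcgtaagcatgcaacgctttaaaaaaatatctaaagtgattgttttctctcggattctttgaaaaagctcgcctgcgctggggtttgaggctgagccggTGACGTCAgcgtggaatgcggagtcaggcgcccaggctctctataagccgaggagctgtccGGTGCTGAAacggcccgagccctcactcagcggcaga
Chgb, chr2:132781392-132781671, plus strand: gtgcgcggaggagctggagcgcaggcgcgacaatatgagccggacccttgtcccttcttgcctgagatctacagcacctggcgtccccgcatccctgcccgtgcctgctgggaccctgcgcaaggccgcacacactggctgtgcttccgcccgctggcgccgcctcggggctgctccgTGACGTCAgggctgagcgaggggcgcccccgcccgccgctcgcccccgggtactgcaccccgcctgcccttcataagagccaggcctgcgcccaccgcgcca
Syn1, chrX:20920889-20921168, minus strand: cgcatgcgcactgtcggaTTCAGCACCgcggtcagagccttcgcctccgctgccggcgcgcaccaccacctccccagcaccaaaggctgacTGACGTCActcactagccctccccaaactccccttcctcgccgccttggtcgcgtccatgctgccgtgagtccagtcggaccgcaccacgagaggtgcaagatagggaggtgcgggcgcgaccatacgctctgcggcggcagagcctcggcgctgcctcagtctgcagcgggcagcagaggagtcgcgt

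The CRE began at position 183 in Scg2, 179 in Chgb and 92 in Syn1. The left RE1 part began at position 244 on the opposite strand in Scg2 and at position 19 in Syn1. GENCODE starts the gene models of Scg2 and Syn1 upstream of the RefSeq start and inside these windows, and that of Chgb upstream of its window. A match describes the letters and is not a measured binding site. Scg2, Chgb and Syn1 were each higher than in undifferentiated cells at all 3 later stages, with the values given further on.

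Between stages the set moved in both directions. Of the 37 genes that passed the filter on low counts, edgeR's quasi-likelihood test (adjusted p under 0.05 over all 13144 genes tested) called 20 higher and 10 lower at day 2 than in undifferentiated cells, where it called 33.7% of all genes higher and 35.9% lower. At day 4 it called 22 higher and 7 lower (31.4% and 31% of all genes), and at day 8 again 22 higher and 10 lower (41.6% and 38.5%). From day 2 to day 4 it called 19 genes of the set higher and 8 lower (27.1% and 24.8% of all genes), and from day 4 to day 8 it called 9 higher and 13 lower (37.1% and 31.5%). The set thus held more genes called higher than lower in each comparison but the last, with a share of higher calls above that of all genes in the first 4. Of the 37 genes, 5 (Rbfox3, Celf4, Stmn2, Scg2 and Chgb) did not reach the filter level of 1.75 CPM in all 3 undifferentiated libraries and entered the test through later stages, and Celf4, Stmn2 and Snap25 did not reach it in all 3 day 2 libraries. In bulk RNA a gene's level moves in the same way with fewer cells that express it and with less RNA in each, and these cannot be told apart here.

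The scale mattered for 2 of these splits. With limma on log2(TPM + 1) the median of all genes shifted to 0.16 at day 4 and to -0.16 at day 8 against undifferentiated cells, to 0.20 from day 2 to day 4 and to -0.29 from day 4 to day 8, while in edgeR it was -0.01, 0.05, 0.01 and 0.07. On that scale 24 genes of the set were higher and 3 lower at day 4 (37.5% and 22.6% of all genes), and 7 were higher and 23 lower from day 4 to day 8 (19.2% and 46.3%). The changes below are edgeR's on the CPM scale unless TPM is named. Without the NC library of day 4, or without the DAMGO library of day 4, 4 genes in place of 7 were called lower at day 4.

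**Figure D1:**
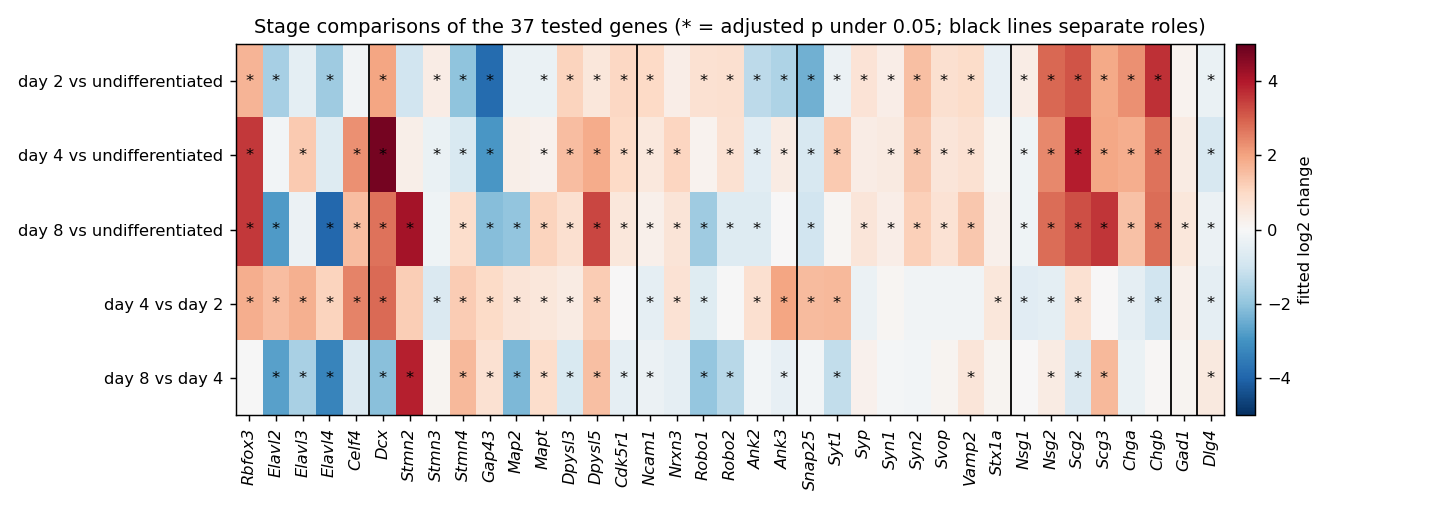
Fitted log2 change (colour, from -5 to 5) of the 37 tested genes (columns, in the order of the 7 roles, separated by black lines) in 5 stage comparisons (rows); an asterisk marks an adjusted p under 0.05 in edgeR. The endosome and granule genes from Nsg2 to Chgb are red in the 3 rows against undifferentiated cells, and Gap43 is blue in the same 3 rows.

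Levels of different genes can be compared as TPM, which divides by transcript length. In undifferentiated cells the most abundant transcripts of the set were Map2, a microtubule-associated protein of dendrites and cell bodies, at 527 ± 6.78 TPM (mean ± SD over the 3 libraries of a stage, here and below) and Gap43, a growth cone protein, at 451 ± 7.90. Their ranges, 519 to 531 and 442 to 456, did not overlap. At day 4 Map2 led at 764 ± 23.7 TPM, ahead of Dpysl3 at 552 ± 22.4, again without overlap, whereas at day 2 the Map2 range of 242 to 754 spanned that of Dpysl3, 331 to 376. At day 8 the granule gene Scg3 led at 310.4 ± 31.9 TPM (279 to 343), above Dpysl3 at 234 to 262, and Map2 had dropped to the fifth place at 133 ± 28.4. A mean of at least 10 TPM was reached by 24 of the 41 genes before differentiation, 25 on day 2, 31 on day 4 and 23 on day 8. The share of all genes at that level was not counted. With limma on log2(TPM + 1) the median of all genes itself moved by 0.20 from day 2 to day 4 and by -0.29 from day 4 to day 8.

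**Figure D2:**
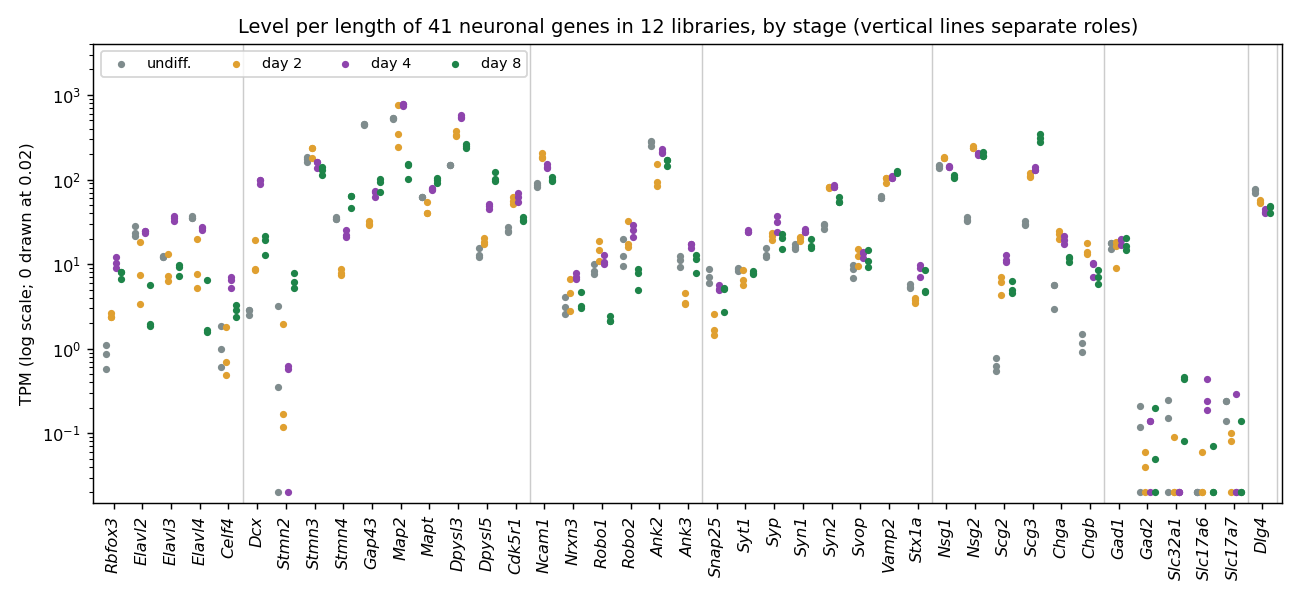
TPM on a log axis (0 drawn at 0.02) of the 41 genes in each of the 12 libraries of the drug experiment; each point is 1 library, coloured by stage, and vertical lines separate the 7 roles. Map2 and Dpysl3 stand highest at day 4, Scg3 at day 8, and Gad2, Slc32a1, Slc17a6 and Slc17a7 stay under 1 TPM throughout.

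A peak at day 4, defined as the highest mean level at day 4 with calls above undifferentiated cells, day 2 and day 8, was found for 6 of the 37 genes and for 4.25% of all genes tested. The 6 were Dcx, Elavl3, Dpysl3, Syt1, Ank3 and Scg2. Values per library are given in the order NC, naloxone, DAMGO throughout, and log2 changes carry their SE. Dcx, the microtubule-binding doublecortin of migrating young neurons, stood at 11.2, 11.6 and 13.4 CPM before differentiation, 75.3, 33.5 and 37.7 on day 2, 323, 347 and 335 on day 4 and 94.4, 57.3 and 90 on day 8. All 3 day 4 libraries lay above every library of the other stages, and the day 2 NC library lay above the 2 drug libraries of its day. Dcx rose by 4.80 ± 0.26 (adjusted p = 1.35e-07) at day 4 against undifferentiated cells, which is 27.9-fold, and fell by 2.10 ± 0.22 (adjusted p = 2.72e-05) from day 4 to day 8. Elavl3 encodes HuC, an RNA-stabilising protein of newly formed neurons, and was at 30.7, 31.1 and 31.5 CPM before differentiation, 32.6, 16.7 and 19.4 on day 2, 71.3, 83.9 and 76.9 on day 4 and 29, 21.2 and 27.1 on day 8. Its day 4 libraries lay above all others, and the day 2 libraries spanned the levels of undifferentiated cells and day 8. The rise was 1.79 ± 0.19 (adjusted p = 7.05e-05) from day 2 to day 4 and 1.32 ± 0.19 (adjusted p = 1.64e-04) against undifferentiated cells. Dpysl3, a collapsin response mediator of growth cones, measured 373, 377 and 370.1 CPM before differentiation, 825, 829.6 and 803 on day 2, 1128, 1056 and 1116 on day 4 and 656, 615 and 663 on day 8. The 4 stages did not overlap, with steps of 1.13 ± 0.06 (adjusted p = 6.45e-08) to day 2, 0.42 ± 0.06 (adjusted p = 2.38e-04) from day 2 to day 4 and -0.77 ± 0.06 (adjusted p = 1.93e-06) from day 4 to day 8.

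Syt1, the calcium sensor of fast vesicle release, had 21.5, 20 and 20.8 CPM before differentiation, 20.2, 14.3 and 16.2 on day 2, 49.9, 54.2 and 50.5 on day 4 and 22, 21 and 22.7 on day 8. All 3 day 4 libraries stood above the rest, which lay between 14.3 and 22.7. It was higher by 1.31 ± 0.12 (adjusted p = 3.70e-06) at day 4 than in undifferentiated cells and by 1.62 ± 0.12 (adjusted p = 4.62e-06) than at day 2. Its lower level at day 2, -0.31 ± 0.12 (adjusted p = 0.0459), lost the call without any 1 of 9 of the 12 libraries, with values of -0.32 to -0.19, and was -0.17 (adjusted p = 0.382) with the passage 8 reference added and -0.29 (adjusted p = 0.142) in DESeq2. Ank3, the ankyrin-G that anchors channels at the axon initial segment, was 24.4, 26.6 and 25.6 CPM before differentiation, 8.85, 8.34 and 8.97 on day 2, 32.2, 34.1 and 36.1 on day 4 and 25.9, 24.5 and 26 on day 8. It dropped at day 2 and then exceeded its undifferentiated range at day 4. From day 2 to day 4 it rose by 1.97 ± 0.10 (adjusted p = 7.00e-07), and day 4 stood 0.42 ± 0.09 (adjusted p = 0.00218) above undifferentiated cells. With the passage 8 reference added as an undifferentiated library that last step was 0.20 (adjusted p = 0.349), and Ank3 then had no peak. Scg2, which encodes secretogranin II, a granule protein and peptide precursor, was at 0.610, 0.868 and 0.705 CPM before differentiation, 7.98, 5.18 and 7.36 on day 2, 11.3, 12.9 and 10.4 on day 4 and 8.84, 6.51 and 6.07 on day 8. Counts behind these levels were 3 to 5 per undifferentiated library and 35 to 70 later. Day 4 lay above day 2 by 0.77 ± 0.20 (adjusted p = 0.00905), and this was 0.56 (adjusted p = 0.0541) without the day 2 naloxone library and 0.58 (adjusted p = 0.0625) without the day 4 naloxone library. The fall of 0.71 ± 0.20 (adjusted p = 0.00915) to day 8 was also lost without the latter, at -0.51 (adjusted p = 0.0728). Without the NC library of day 2 the count of peaks was 9, with Celf4, Map2 and Nrxn3 added. Celf4 just missed the definition, at -0.74 ± 0.31 (adjusted p = 0.0555 in edgeR) from day 4 to day 8. It met the definition with DESeq2's size factors, with limma on log2(TPM + 1) and log2(TPM + 0.1) and with no filter. The same held with the GC and length trend removed, with the passage 8 reference added, and without the day 2 naloxone or the day 4 NC library. Nrxn3 met it with that trend removed and without the day 2 or the day 8 DAMGO library.

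**Figure D3:**
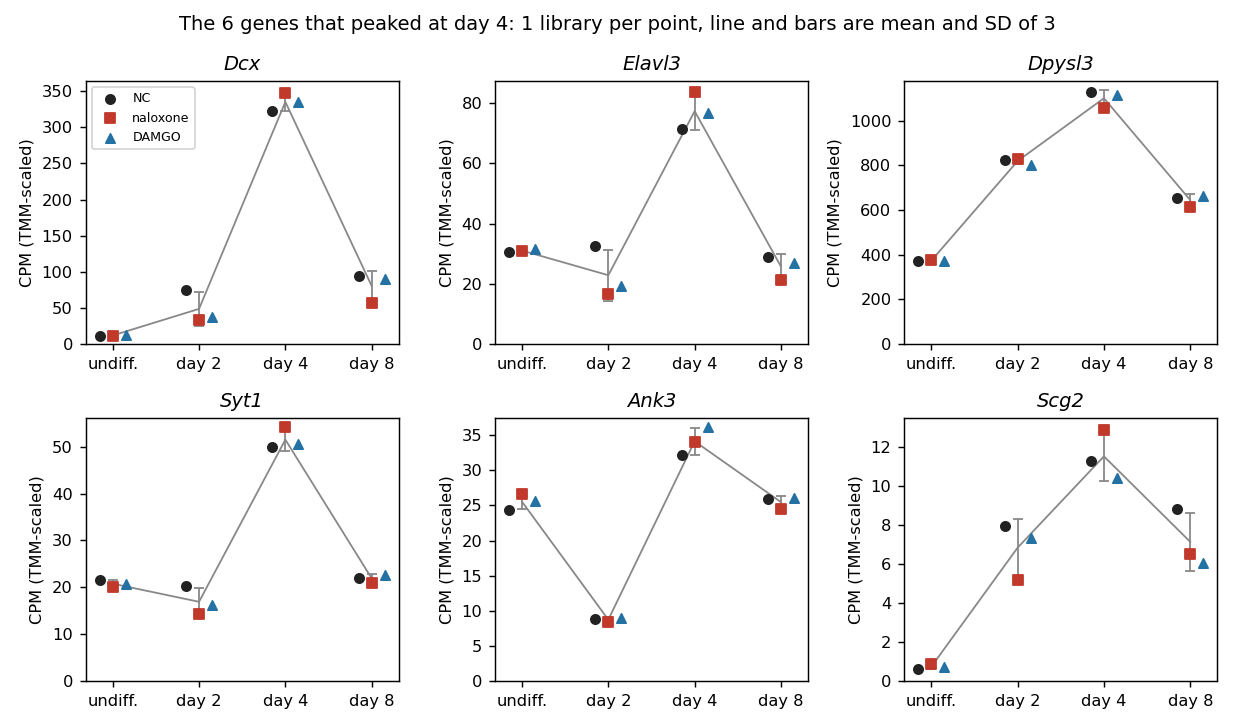
TMM-scaled CPM of the 6 genes with a peak at day 4, by stage; points are single libraries (NC, naloxone or DAMGO), lines join stage means and bars are the SD of 3 libraries. Dcx goes from 11.2 to 13.4 CPM in undifferentiated cells to 323 to 347 at day 4, and Ank3 dips to 8.34 to 8.97 at day 2 before its peak.

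Gpr17, Pdgfra, Enpp6 and Sox10, which mark oligodendrocyte precursors, also met the definition of a peak at day 4. For Gpr17, a receptor of committed precursors, the level was 6.62 ± 1.44 CPM before differentiation, 613 ± 54.5 on day 2, 1190.2 ± 22.6 on day 4 and 483 ± 38.8 on day 8. Of the 8 precursor markers, 5 were higher and 3 lower at day 4 than in undifferentiated cells (31.4% and 31% of all genes). Between day 2 and day 4 the counts were also 5 higher and 3 lower (27.1% and 24.8% of all genes). The summed level of the 8 was 4500.4 to 5325 CPM on day 2 and 4168 to 4219 on day 4, so the list as a whole did not peak at day 4. From day 4 to day 8, 7 fell (31.5% of all genes). All 8 astrocyte markers were higher at day 4, and the summed level of the 6 dividing progenitor markers was 321 CPM in the day 4 libraries. The part of these other cells in the day 4 peak of the neuronal genes was not tested.

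The RNA-binding proteins split by stage. At day 4, 3 of 5 were higher than in undifferentiated cells and 0 lower (31.4% and 31% of all genes). The median log2 change was 1.32 against -0.01 over all genes. From day 2 to day 4 all 5 rose (27.1% of all genes), with a median of 1.79 (all genes 0.01). From day 4 to day 8, 3 fell and 0 rose (31.5% and 37.1% of all genes), with a median of -1.61 (all genes 0.07). Rbfox3, the splicing regulator known as NeuN, was 0.813, 1.21 and 1.23 CPM before differentiation, 3.19, 3.92 and 3.59 on day 2, 10.5, 13.7 and 14.4 on day 4 and 10.9, 13.4 and 13.9 on day 8. On the CPM scale its day 4 and day 8 libraries overlapped and differed by -0.01 ± 0.13 (adjusted p = 0.962). In TPM they did not overlap, at 8.98, 10.2 and 12.1 on day 4 and 6.69, 8.12 and 8.04 on day 8. Rbfox3 met the definition of a peak at day 4 with limma on log2(TPM + 1) but not on log2(TPM + 0.1). Against undifferentiated cells, with 4, 7 and 7 counts, day 4 was higher by 3.53 ± 0.22 (adjusted p = 7.94e-08). Celf4, a translation and splicing regulator of neurons, had 3.66, 1.21 and 1.94 CPM before differentiation, 3.48, 1.01 and 1.44 on day 2, 8.96, 11.3 and 12 on day 4 and 7.71, 5.33 and 6.59 on day 8. Both later stages lay above the first 2, by 2.30 ± 0.39 (adjusted p = 3.33e-04) at day 4 and 1.56 ± 0.40 (adjusted p = 0.00336) at day 8 against undifferentiated cells. Elavl4, which encodes HuD, went the other way, with 71.5, 70.1 and 70.7 CPM before differentiation, 40, 11.2 and 16.3 on day 2, 46.6, 45.9 and 44.5 on day 4 and 7.14, 3.55 and 3.82 on day 8. Undifferentiated cells held the highest levels and day 8 the lowest. The fall was 3.94 ± 0.37 (adjusted p = 2.49e-06) at day 8 against undifferentiated cells, 15.3-fold, with a partial return from day 2 to day 4 of 1.13 ± 0.29 (adjusted p = 0.0102), which was 1.00 (adjusted p = 0.0505) without the day 2 DAMGO library. Elavl2, the HuB gene, was similar, at 37.6, 33.7 and 36.3 CPM before differentiation, 23.6, 6.07 and 6.82 on day 2, 30.9, 32.3 and 35.4 on day 4 and 7.52, 4.14 and 3.82 on day 8. Day 4 overlapped with undifferentiated cells, whereas the drug libraries of day 2 and all day 8 libraries were far below. It fell by 1.67 ± 0.34 (adjusted p = 0.00151) at day 2 and by 2.72 ± 0.40 (adjusted p = 1.53e-04) from day 4 to day 8. The GC content of these transcripts is low, 38.5% for Elavl2 and 38.9% for Elavl4. Libraries of day 2 and of day 8 differed in base composition, as described below for the drugs.

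The microtubule, growth cone and axon genes showed no shared direction at day 2 (median 0.01). Then 5 of 10 were higher and 3 lower (33.7% and 35.9% of all genes). By day 8, 7 were higher and 2 lower (41.6% and 38.5% of all genes), with a median of 0.83 against 0.05 over all genes. Gap43, a membrane protein of growth cones that is also made by glial progenitors, was at 297, 298 and 289 CPM before differentiation, 19, 22.1 and 19.6 on day 2, 41.5, 36.3 and 40.5 on day 4 and 78.4, 53.2 and 71.6 on day 8. Undifferentiated libraries exceeded all others, and the 3 later stages rose in order without overlap. It fell by 3.86 ± 0.13 (adjusted p = 7.95e-09) at day 2, 14.5-fold, and stood at -2.13 ± 0.12 (adjusted p = 8.98e-08) at day 8. Dpysl5, another collapsin response mediator, climbed at each step, with 30.7, 31.1 and 30.7 CPM before differentiation, 40.3, 49.8 and 47 on day 2, 118, 112 and 102 on day 4 and 299, 356 and 284 on day 8. No 2 stages overlapped. The rise was 3.34 ± 0.10 (adjusted p = 9.70e-10) by day 8. Stmn2, the axonal growth protein SCG10 and a defining marker of neurons, was 0.610, 0 and 0.352 CPM before differentiation, 0.145, 0.126 and 0.179 on day 2, 0.498, 0.553 and 0 on day 4 and 5.64, 5.68 and 6.07 on day 8. Counts were 0 to 3 per library up to day 4 and 30 to 48 at day 8. Day 8 lay above day 4 by 3.88 ± 0.70 (adjusted p = 1.19e-04). Map2 had 1257, 1220.2 and 1239 CPM before differentiation, 1678, 610.4 and 826 on day 2, 1492, 1539 and 1484 on day 4 and 373, 257 and 343 on day 8. The day 2 NC library was the highest of the 12 and its 2 drug partners lay below all undifferentiated and day 4 libraries, and day 8 was lowest. From day 4 to day 8 Map2 fell by 2.25 ± 0.24 (adjusted p = 2.97e-05). The step from day 2 to day 4, 0.63 ± 0.24 (adjusted p = 0.0482), lost the call without any 1 of 8 libraries, down to 0.36 (adjusted p = 0.208) without the day 2 naloxone library. Mapt, which encodes tau, rose to day 8 by 1.10 ± 0.07 (adjusted p = 1.80e-07) from 139 ± 1.41 to 298 ± 15.6 CPM. Its lower level at day 2, -0.34 ± 0.07 (adjusted p = 0.00147), was -0.17 (adjusted p = 0.406) with the passage 8 reference added. Stmn4, a stathmin of neurons, first fell by 2.01 ± 0.18 (adjusted p = 3.13e-06) at day 2 and then rose by 1.63 ± 0.15 (adjusted p = 9.35e-06) from day 4 to day 8. Cdk5r1, the p35 activator of the kinase Cdk5, was higher at days 2, 4 and 8, by 1.02, 1.01 and 0.56. Stmn3 ranged from 60.7 to 125 CPM over the 12 libraries, and its calls at day 2 (higher) and day 4 (lower) were lost without any 1 of 3 and any 1 of 5 libraries, with values of 0.29 to 0.31 and -0.38 to -0.32, and the latter was -0.17 (adjusted p = 0.177) with limma on log2(TPM + 1).

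Among adhesion, guidance and ankyrin genes, 4 of 6 were higher and 1 lower at day 4 (31.4% and 31% of all genes). From day 4 to day 8, 4 fell and 0 rose (31.5% and 37.1% of all genes), with a median of -0.43 (all genes 0.07). Robo1, a receptor for the repellent Slit, was 29.9, 38.5 and 31.9 CPM before differentiation, 70.3, 44.4 and 58.5 on day 2, 35.8, 34.3 and 43.3 on day 4 and 9.59, 9.24 and 10.9 on day 8. Day 2 was highest and day 8 lowest, without overlap between them or with the remaining libraries. From day 4 to day 8 Robo1 fell by 1.92 ± 0.19 (adjusted p = 1.45e-05), and the step from day 2 to day 4, -0.61 ± 0.16 (adjusted p = 0.0115), was -0.54 (adjusted p = 0.0505) without the day 4 NC library and -0.35 (adjusted p = 0.175) with limma on log2(TPM + 1). Robo2, its relative, had 39.6, 29.9 and 34.2 CPM before differentiation, 90.1, 43.3 and 51.9 on day 2, 61.4, 57 and 57 on day 4 and 27.3, 16.2 and 24.6 on day 8. The drug libraries of day 2 were closer to undifferentiated cells than the NC library was. It fell by 1.40 ± 0.17 (adjusted p = 6.75e-05) from day 4 to day 8. Ank2, the ankyrin-B scaffold of axons, was at 743, 742 and 687 CPM before differentiation, 406, 233 and 262 on day 2, 491, 513 and 523 on day 4 and 494, 411 and 507 on day 8. Every later library was below the undifferentiated range. It fell by 1.29 ± 0.15 (adjusted p = 3.29e-05) at day 2, and its level at day 4, -0.51 ± 0.15 (adjusted p = 0.0134), lost the call without the undifferentiated naloxone library (-0.40, adjusted p = 0.0731) or the day 4 NC library (-0.39, adjusted p = 0.0652), and with limma on log2(TPM + 1) (-0.33, adjusted p = 0.0894). Nrxn3, a presynaptic neurexin, measured 8.54, 9.20 and 9.52 CPM before differentiation, 13.8, 12.3 and 8.26 on day 2, 20.1, 18.1 and 19.7 on day 4 and 13.3, 11.7 and 18 on day 8. All 3 day 4 libraries, at 18.1 or more, stood above the rest, the nearest being the day 8 DAMGO library at 18. The rise at day 4 was 1.08 ± 0.21 (adjusted p = 0.00128). That at day 8, 0.65 ± 0.22 (adjusted p = 0.0174), was 0.57 (adjusted p = 0.0667) without the undifferentiated NC library and 0.40 (adjusted p = 0.0983) without the day 8 DAMGO library, and was 0.13 (adjusted p = 0.666) with limma on log2(TPM + 1). Ncam1, the neural cell adhesion molecule, went from 169 ± 9.98 CPM to 334 ± 18.6 at day 2, a rise of 0.98 ± 0.07 (adjusted p = 7.42e-07), and then to 199 ± 6.78 at day 8.

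Of the 8 vesicle and fusion genes, 5 were higher and 2 lower at day 2 (33.7% and 35.9% of all genes; median 0.52, all genes -0.01). At day 4, 5 were higher and 1 lower (31.4% and 31% of all genes; median 0.52), and at day 8 the counts were again 5 and 1 (41.6% and 38.5%; median 0.46, all genes 0.05). From day 4 to day 8, 1 rose and 1 fell (37.1% and 31.5% of all genes). Syn2, a synapsin that tethers vesicles, was at 53.5, 48.6 and 55.2 CPM before differentiation, 138, 153 and 150.0 on day 2, 136, 129.9 and 128 on day 4 and 115, 129 and 115 on day 8. All later libraries lay above the undifferentiated range. The change was 1.49 ± 0.08 (adjusted p = 1.79e-07) at day 2 and 1.19 ± 0.09 (adjusted p = 4.80e-07) at day 8. Vamp2, the vesicle SNARE synaptobrevin, had 50.2, 54.8 and 49.3 CPM before differentiation, 85.9, 107 and 103 on day 2, 89.2, 85.2 and 86.4 on day 4 and 129, 137 and 131 on day 8. Undifferentiated cells were lowest and day 8 highest, and days 2 and 4 overlapped. By day 8 it had risen by 1.36 ± 0.09 (adjusted p = 1.81e-07). Svop, a transporter-like protein of synaptic vesicles, was 10.2, 12.5 and 11.5 CPM before differentiation, 15.4, 24 and 20.8 on day 2, 16.3, 18.8 and 16.9 on day 4 and 15.2, 23.1 and 18.9 on day 8. All later libraries stood above undifferentiated cells, by 0.81 ± 0.12 (adjusted p = 1.88e-04) at day 2, and overlapped with each other. Snap25, the plasma membrane SNARE and a defining neuronal gene, was called lower at day 2, like Syt1 above, with 9.96, 6.42 and 6.87 CPM before differentiation, 1.89, 1.39 and 0.897 on day 2, 3.98, 4.43 and 4.63 on day 4 and 4.89, 2.13 and 5.20 on day 8. Undifferentiated libraries were the highest. The fall was 2.42 ± 0.36 (adjusted p = 1.07e-04) at day 2 on 5 to 13 counts a library. Its lower levels at day 4 and day 8, -0.82 ± 0.30 (adjusted p = 0.0337) and -0.97 ± 0.29 (adjusted p = 0.0106), lost the call without any 1 of 4 and of 2 libraries, with values of -0.85 to -0.55 and -0.86 to -0.64. The level at day 4 was also not called in DESeq2 (-0.80, adjusted p = 0.0838), with the passage 8 reference added (-0.64, adjusted p = 0.105) or with limma on log2(TPM + 1) (-0.40, adjusted p = 0.131). Syn1 rose by 0.43 ± 0.11 (adjusted p = 0.00522) at day 4, Syp, the vesicle membrane protein synaptophysin, by 0.69 ± 0.15 (adjusted p = 0.00230) at day 2, and Stx1a, the syntaxin partner of Snap25, ranged from 3.48 to 6.99 CPM with no call against undifferentiated cells. The Syn1 calls at day 2 and day 8 were lost without the undifferentiated NC library, at 0.30 (adjusted p = 0.0645) and 0.26 (adjusted p = 0.0817), and without the undifferentiated naloxone library, at 0.30 and 0.27, and that at day 8 also without the day 8 naloxone library, at 0.22 (adjusted p = 0.0937). With limma on log2(TPM + 1) the Syn1 changes were 0.30 (adjusted p = 0.0553) at day 2 and 0.10 (adjusted p = 0.491) at day 8, and DESeq2 gave 0.31 (adjusted p = 0.0738) at day 8. Syn1, Syn2 and Svop, like Nsg1, overlap an exon of a gene on the other strand (Araf, Timp4, Usp30 and Stx18), and no label says whether the counting used strand.

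The granule and endosome genes had the highest median change at day 2 of the 7 roles. All 6 were higher at day 2 (33.7% of all genes), with a median of 2.57 (all genes -0.01). At day 4 and day 8, 5 were higher and 1, Nsg1, lower (medians 2.17 and 2.79). The shares of all genes were 31.4% higher and 31% lower at day 4, and 41.6% and 38.5% at day 8. Nsg2, an endosomal protein of neurons, was at 34.8, 35.8 and 36.7 CPM before differentiation, 247, 279 and 262 on day 2, 194, 189 and 183 on day 4 and 243, 262 and 239 on day 8. Undifferentiated cells were far below all later libraries, and the rise at day 2 was 2.88 ± 0.07 (adjusted p = 1.36e-09), 7.35-fold. Its change from day 4 to day 8, 0.40 in edgeR, was -0.01 with limma on log2(TPM + 1). Chgb, chromogranin B, had 2.03, 1.56 and 1.23 CPM before differentiation, 23.6, 18.4 and 19.6 on day 2, 11.8, 8.30 and 12.3 on day 4 and 11.3, 9.0 and 13.2 on day 8. It was highest at day 2 and overlapped between days 4 and 8. The rise at day 2 was 3.67 ± 0.24 (adjusted p = 1.35e-07), 12.7-fold, followed by a fall of 0.94 ± 0.15 (adjusted p = 8.15e-04) to day 4. Chga, chromogranin A, was also highest at day 2, at 2.64, 5.03 and 5.11 CPM before differentiation, 17.4, 23.3 and 21.4 on day 2, 13.6, 15.1 and 16.7 on day 4 and 11.3, 12.3 and 12.1 on day 8. Day 2 libraries were all above day 4, and day 4 above day 8. It was higher by 2.27 ± 0.17 (adjusted p = 9.51e-07) at day 2, and the fall of 0.45 ± 0.14 (adjusted p = 0.0225) to day 4 was lost without any 1 of 3 libraries (-0.47 to -0.37), in DESeq2 (-0.45, adjusted p = 0.0753) and with limma on log2(TPM + 1) (-0.21, adjusted p = 0.294). Scg3, a granin that binds chromogranin A in the granule membrane, rose in 2 steps, with 32.5, 31.6 and 35.1 CPM before differentiation, 127, 122 and 123 on day 2, 123, 125 and 133 on day 4 and 396, 347 and 433 on day 8. Days 2 and 4 overlapped and day 8 lay far above. From day 4 to day 8 it rose by 1.62 ± 0.07 (adjusted p = 7.96e-08). Nsg1, the relative of Nsg2, moved little, from 148 ± 4.92 CPM to 192 ± 10 at day 2 and 128 ± 3.80 at day 8. Its lower level at day 4 was lost without any 1 of 3 libraries (-0.20 to -0.18), in DESeq2 (-0.20, adjusted p = 0.0724) and with limma on log2(TPM + 1) (-0.02, adjusted p = 0.815). The astrocyte sums given above also rose at day 2 and at day 8, and the part of astrocytes in the granin levels was not tested.

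Gad1, which encodes the GABA-making enzyme GAD67, was at 17.3, 17.7 and 16.2 CPM before differentiation, 27, 14 and 17.2 on day 2, 23.2, 24.5 and 20.6 on day 4 and 25, 23.6 and 27.2 on day 8. All day 4 and day 8 libraries exceeded the undifferentiated ones, and day 2 spanned both. The difference at day 8, 0.56 ± 0.19 (adjusted p = 0.0182), was 0.01 (adjusted p = 0.975) with limma on log2(TPM + 1), and was lost without any 1 of 3 libraries (0.45 to 0.55). Dlg4, the postsynaptic scaffold PSD-95, was 94.1, 92.3 and 101 CPM before differentiation, 69.2, 79 and 77.7 on day 2, 61, 57.7 and 47.7 on day 4 and 78.4, 84.2 and 73.2 on day 8. On the CPM scale undifferentiated libraries were highest and day 4 lowest, and day 2 and day 8 overlapped. In TPM day 4 (40.3 to 44.7) and day 8 (39.9 to 48.9) overlapped. Dlg4 fell by 0.79 ± 0.11 (adjusted p = 9.19e-05) at day 4. The rise from day 4 to day 8, 0.50 ± 0.11 (adjusted p = 0.00185), was 0.10 (adjusted p = 0.383) with limma on log2(TPM + 1). The smaller differences at day 2, -0.35 ± 0.10 (adjusted p = 0.0116), and day 8, -0.29 ± 0.10 (adjusted p = 0.0250), were -0.27 (adjusted p = 0.0725) and -0.21 (adjusted p = 0.127) without the undifferentiated DAMGO library. The former was also lost without the day 2 NC library, at -0.22, and the latter without the day 8 NC or DAMGO library, at -0.29 and -0.24. With the GC and length trend removed the latter was -0.29 (adjusted p = 0.0635).

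Across roles, 3 further patterns were counted after the values had been seen. Genes called higher at days 2, 4 and 8 alike numbered 15 of 37 (21.7% of all genes): Rbfox3, Dcx, Dpysl3, Dpysl5, Cdk5r1, Ncam1, Syn1, Syn2, Svop, Vamp2, Nsg2, Scg2, Scg3, Chga and Chgb. Among them Rbfox3, Scg2 and Chgb entered the test through later stages, which favoured higher calls. Called lower at all 3 days were Gap43, Ank2, Snap25 and Dlg4, 4 of 37 (19.2% of all genes), and 2 without the undifferentiated naloxone library or without the day 4 NC library. A fall at day 2 followed by a rise to day 4 was called for 9 genes (15.3% of all genes): Elavl2, Elavl4, Stmn4, Gap43, Mapt, Ank2, Ank3, Snap25 and Syt1. The day 2 calls of Mapt and Syt1 were lost with the passage 8 reference added. Each of the calls rests on the same 12 libraries, so the patterns share their noise.

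Other genes of the same pathways were read from 9 lists of 184 names, of which 183 were found and 142 tested. The counts below stand beside 31.4% of all genes higher and 31% lower at day 4, 41.6% and 38.5% at day 8, and 37.1% and 31.5% from day 4 to day 8. Of 15 tested proneural and neuronal transcription factors, 11 were higher and 2 lower at day 4 than in undifferentiated cells (median 1.38), and from day 4 to day 8, 13 fell and 1 rose (median -1.32, all genes 0.07). Neurog2, a proneural factor, was at 0.998 ± 0.449 CPM before differentiation, 18.4 ± 1.74 on day 2, 14.8 ± 0.829 on day 4 and 4.61 ± 0.911 on day 8. Nhlh1, a factor of newly born neurons, went from 0.0678 ± 0.117 CPM to 7.45 ± 1.0 at day 4 and 3.01 ± 0.679 at day 8. Neurod2 had no count in the 3 undifferentiated libraries and 2.15 ± 1.08 CPM at day 4, at least 11.7-fold higher when the undifferentiated group is set to 3 counts. The undifferentiated means of Neurog2, Nhlh1 and Neurod2 were under the filter level of 1.75 CPM. They entered the test through later stages, which favoured higher calls, and the same holds for Cntn2, Pcsk2 and Shank1 below. Of 12 repressors of neuronal genes, 4 were higher and 5 lower at day 4 (median -0.15), shares near those of all genes. Ptbp1, a splicing repressor that blocks neuronal exons, fell from 317 ± 7.89 CPM to 137 ± 4.91 at day 4 and stood at 261 ± 37.1 at day 8. Rcor1, the REST corepressor, fell from 71.5 ± 7.44 to 44.5 ± 1.23, and the phosphatase Ctdsp1, a partner of REST, rose from 53.3 ± 3.15 to 91.4 ± 4.87 CPM. Rest itself, added here after its values were seen because of the RE1 matches, was at 44.4 ± 2.37 CPM before differentiation, 33.1 ± 10.9 on day 2, 44.7 ± 2.70 on day 4 and 25.6 ± 1.31 on day 8. Its change against undifferentiated cells was -0.45 ± 0.14 at day 2 (adjusted p = 0.0157), 0.00 ± 0.14 at day 4 (adjusted p = 0.981) and -0.79 ± 0.14 at day 8 (adjusted p = 4.66e-04), with a rise of 0.45 ± 0.14 from day 2 to day 4 (adjusted p = 0.0219). The day 2 libraries were at 45.5 CPM with NC, 25.5 with naloxone and 28.2 with DAMGO, so that the NC library lay within the undifferentiated range.

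Of 28 other synaptic vesicle and active zone genes tested, 14 were higher and 5 lower at day 4 (median 0.40). Bsn, the active zone scaffold bassoon, rose from 9.60 ± 0.388 CPM to 41.5 ± 1.64 and Rab3c, a vesicle GTPase, from 6.72 ± 1.26 to 27.2 ± 1.06, while Sncb, beta-synuclein, fell from 2.14 ± 1.06 to 0.0553 ± 0.0958. Of 21 other axonal genes, 15 were higher and 3 lower at day 4 (median 0.67). Tubb3, the neuronal beta-tubulin, went from 17.4 ± 0.314 CPM to 108 ± 2.04, the adhesion molecule Nfasc from 12.6 ± 0.832 to 96.1 ± 4.13, and the axonal contactin Cntn2 from 0.661 ± 0.239 to 19.7 ± 4.36. Of 20 guidance genes, 10 were higher and 3 lower at day 4 (median 0.24), and from day 4 to day 8, 15 fell and 4 rose (median -1.20). The netrin receptor Unc5c was at 3.83 ± 0.786, 64.2 ± 1.66 and 28.7 ± 4.70 CPM in undifferentiated cells, day 4 and day 8, and the ephrin receptor Epha4 at 11.4 ± 2.42, 84 ± 4.46 and 38.1 ± 6.94. Sema3c, a secreted semaphorin, fell from 9.42 ± 1.31 to 0.923 ± 0.513 at day 4. Of 8 other peptide processing genes, 6 were higher and 2 lower at day 4, and 6 were higher and 1 lower at day 8 (medians 2.13 and 3.10). Cpe, the carboxypeptidase that trims peptides in granules, rose from 270.4 ± 12.5 CPM to 2250.1 ± 19.9 at day 4 and 4815 ± 299 at day 8, Pcsk1n, which encodes the convertase inhibitor proSAAS, from 8.63 ± 1.09 to 58.6 ± 5.48 and 82.6 ± 5.21, and the convertase Pcsk2 from 0.592 ± 0.346 to 4.19 ± 1.08 and 7.15 ± 2.84.

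Transmitter genes were mostly too low to test: 5 of 21 passed the filter, and at day 4, 1 was higher, 1 lower and 3 not called. Reln, the secreted protein reelin, rose from 1.92 ± 0.897 CPM to 19.3 ± 1.40 at day 4. Of 21 other postsynaptic genes, 11 were higher and 4 lower at day 4 (median 0.44). Camk2b, a subunit of the calcium-dependent kinase CaMKII, fell from 408 ± 13.2 CPM to 20.3 ± 2.92, Nrgn, the calmodulin-binding neurogranin, fell from 7.21 ± 1.13 to 0.0615 ± 0.107, and the scaffold Shank1 rose from 1.35 ± 0.279 to 6.84 ± 0.126. Of 12 relatives of the RNA-binding, neurexin, ankyrin and adhesion genes, 6 were higher and 3 lower at day 4 (median 0.26). Nrxn2 rose from 156 ± 15.5 CPM to 271 ± 6.10, Celf3 from 2.69 ± 0.418 to 11.3 ± 1.67 and Ank1 from 5.33 ± 0.255 to 12.4 ± 1.55.

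Neither drug gave a called change in the set. Over the 4 stages edgeR called 0 of the 37 genes for naloxone against NC, for DAMGO against NC and for naloxone against DAMGO, and 0% of all genes in each; DESeq2, limma-voom and limma on TPM also called 0 of the set. At an unadjusted p under 0.05 there were 1332, 314 and 229 genes, among them 9, 4 and 1 of the set, and the smallest adjusted p was 0.469, 0.951 and 1.0. The 3 genes with the smallest p for naloxone were Svop at 0.45 ± 0.10, Robo2 at -0.59 ± 0.15 and Chgb at -0.39 ± 0.15, each with an adjusted p = 0.469. For DAMGO they were Rbfox3 at 0.37 ± 0.14, Chga at 0.32 ± 0.14 and Svop at 0.25 ± 0.11 (adjusted p = 0.951), and between the drugs Scg3, Chgb and Svop (adjusted p = 1.00). None of these passed the threshold, which does not show that the drugs left the genes alike, and a drug effect that differs between stages adds to the residual spread of this model.

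Within day 2 the 2 drug libraries differed from NC in the same direction for part of the set. With 1 library each there is no test, and both differences share the NC library. On the log2 scale Elavl2 was at -1.88 with naloxone and -1.72 with DAMGO, Elavl4 at -1.79 and -1.27, Map2 at -1.46 and -1.02, Celf4 at -1.40 and -1.04, Dcx at -1.16 and -0.99, and Robo2 at -1.05 and -0.79. Past 2-fold lower were 6 of the 37 genes with naloxone and 4 with DAMGO, beside 11.6% and 8.73% of all genes, and 0 were past 2-fold higher, beside 0.502% and 0.593%. These libraries also differed in base composition. The correlation across genes between a library's deviation from its stage and GC content was -0.571 for NC, 0.502 for naloxone and 0.324 for DAMGO at day 2. The day 8 libraries differed too, at -0.31 for NC, 0.507 for naloxone and -0.306 for DAMGO. Across the 37 genes, r between the difference from NC and GC content was 0.63 for naloxone and 0.64 for DAMGO; these points share libraries and are a description. A trend on GC content and length was then removed within the stage. The r of -0.01 and -0.00 that remained largely follows from this removal and is not a separate result. After it, 2 genes were past 2-fold lower with naloxone and 1 with DAMGO (2.67% and 1.94% of all genes). Elavl2 was then at -0.70 and -0.77, and Dcx at 0.17 and 0.04. Celf4 and Map2 were at -1.35 and -1.11 with naloxone and at -1.01 and -0.76 with DAMGO after the trend was removed. Counts of Celf4 were 24, 8 and 8 in the 3 day 2 libraries. At day 4 the medians of the differences were -0.02 for naloxone and -0.01 for DAMGO, with 0 genes of the set past 2-fold lower in either (0.708% and 1.01% of all genes). At day 8 Snap25 was at -1.03 with naloxone against NC, and at -0.39 with the GC and length trend removed.

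**Figure D4:**
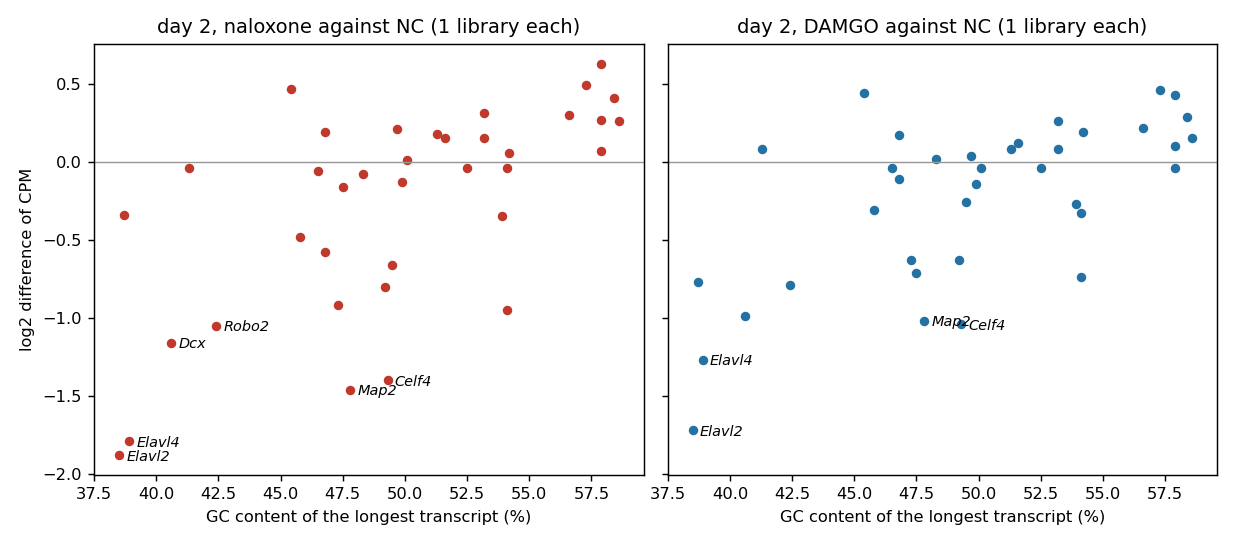
Log2 difference in CPM of the naloxone library (left) and the DAMGO library (right) from the NC library at day 2, against the GC content of the longest transcript, for the 37 tested genes; each point is 1 gene, and genes at least 2-fold apart are named. Points of low GC content lie lower in both panels, with r = 0.63 and 0.64, and Elavl2 and Elavl4 lie lowest on the left.

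The 2 reference libraries compare passage 13 with passage 8, with 1 library each and no test. Past 2-fold higher at passage 13 were Nrxn3 (4.39 and 9.77 CPM at passage 8 and 13, log2 difference 1.10) and Syt1 (13.5 and 28.1 CPM, 1.04), 2 of 37 genes beside 1.36% of all genes. Past 2-fold lower were Celf4 (3.09 and 1.36 CPM, -1.02, on 19 and 10 counts) and Ank3 (43.6 and 20.8 CPM, -1.06), 2 of 37 beside 1.47% of all genes. Computed from TPM with a pseudocount of 1, 0 genes were past 2-fold in either direction, with 0.75 for Nrxn3, 0.95 for Syt1, -0.59 for Celf4 and -0.84 for Ank3. The passage 8 reference itself differed from the 3 undifferentiated libraries in some of these genes. Ank3 was at 43.6 CPM in that reference and at 24.4, 26.6 and 25.6 in the undifferentiated libraries, whereas passage 13 at 20.8 was closer to them. Syt1 was at 13.5 CPM against 21.5, 20 and 20.8, and Mapt at 73.3 against 139.6, 138 and 141, with 123 at passage 13. Dcx was at 20.3 and 18.4 CPM in the references and at 11.2 to 13.4 in the undifferentiated libraries.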

How the data were processed

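The 14 libraries of mouse NSC were TruSeq RNA libraries, per the labels' protocols. Per the submitters' processing notes, Bowtie and RSEM were used with the mm10 genome. Versions and settings: not given in the sources used here. Per the file headers, the deposited columns are expected counts, TPM and FPKM for 29713 genes. The authors' expected counts are RSEM estimates. In each library 10.4 to 13.1% of genes had a fractional value, and all were rounded before testing. The deposited TPM values were used to compare levels between genes, and the FPKM column was not used. RSEM divides reads between related genes, so the members of the Elavl, Stmn and Dpysl families depend on this division. Symbols (29202 genes), positions and GC content came from GENCODE for mm10.

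Samples were grouped by their titles. The 12 libraries of the drug experiment were fitted with edgeR's quasi-likelihood test in an additive model of stage and treatment, with TMM scaling and filterByExpr by stage (about 1.75 CPM in 3 libraries), which left 13144 genes. P-values were adjusted over all of them by the Benjamini-Hochberg method with a threshold of 0.05. The reference libraries were compared by fold alone (log2 CPM with a prior count of 2). Values in every library are given for the genes that peaked at day 4 and, in each role, up to 4 further genes with the largest called change. Up to 3 called genes are named per pathway list. The members, the lists and the tests were chosen with earlier results of these data known. The fits were tested on simulated counts.

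The 22 alternatives were DESeq2's size factors, DESeq2, limma-voom, limma on log2(TPM + 1) and log2(TPM + 0.1), no filter, removal within stages of each library's dependence on GC content and length, a required 2-fold change, the passage 8 reference added, the day 2 libraries left out, and each of the 12 libraries left out. Software: DESeq2 1.42.0, edgeR 4.0.16, limma 3.58.1 and mgcv 1.9.3 in R 4.3.3, and pandas 2.3.3. Promoter sequences are RefSeq's (GRCm38.p6).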

Additional observations from a re-analysis of the deposited data

How the results depend on the processing

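Of 140 stage calls among the 37 genes, 112 held under every alternative that gave a value other than the 2-fold requirement, under which 74 remained, and the largest change among the other 28 was 1.13 on the log2 scale, that of Elavl4 from day 2 to day 4. Of 3811 single-gene values under alternatives, 3558 had the same direction and side of the threshold, 109 lost a call, 79 gained one, 63 others moved by more than their spread and 2 changed sign. Those 2 were Nsg2 from day 4 to day 8, at -0.01 with limma on log2(TPM + 1) and on log2(TPM + 0.1). Asking also for a 2-fold change left 10 genes higher at day 2, 1 lower at day 4, 13 higher and 5 lower at day 8, 11 higher and 0 lower from day 2 to day 4, 4 higher and 8 lower from day 4 to day 8, 3 peaks at day 4, 8 genes higher and 1 lower at all 3 days, and 5 with a fall at day 2 and a return. With limma on log2(TPM + 1) and log2(TPM + 0.1), 3 and 3 genes were lower at day 4, 23 and 22 lower from day 4 to day 8, and 2 and 2 lower at all 3 days; the shift of the all-gene median on that scale is given in the report. From TPM, 0 genes were past 2-fold higher and 0 lower at passage 13. Leaving out 1 library at a time, the calls at day 2 were 18 to 20 higher and 8 to 11 lower, at day 4, 21 to 25 and 4 to 8, at day 8, 18 to 22 and 9 to 12, from day 2 to day 4, 16 to 19 and 7 to 11, and from day 4 to day 8, 9 to 10 and 12 to 16. Peaks at day 4 numbered 5 to 9, genes higher at all 3 days 13 to 16, lower at all 3 days 2 to 5, those with a fall and a return 7 to 11, and the drugs had 0 calls in each. The cause of these differences was not tested. Depth limits Stmn2, Scg2, Rbfox3, Chgb and Celf4 in undifferentiated cells, and the 4 untested transporter and enzyme genes throughout.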
